A study of Mus musculus with 40 samples.

Results

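The comparison set total colon of uninoculated mice at day 48 against total colon of uninoculated mice at day 3, over 7 of the 40 libraries of the series. Libraries were taken by their titles, which give the tissue, the control arm and the day, so that all 4 control libraries of total tissue from day 48 and all 3 from day 3 entered. The day 48 group held litters 1 to 4 and the day 3 group litters 1 to 3, by a separate litter label, with 1 library per litter and day. Both groups received no inoculum, and days are counted from the time at which other mice of the study were given 2000000 sorted cells of the gut protist Tritrichomonas musculis (T.mu). Strain, age and the hour of collection are not given in the sources used here, so time since the start of the experiment, age, hour of day and library batch cannot be told apart. The i5 sequencing index also differed between the 2 days. RNA was counted at the 3′ ends of transcripts, and levels are given as CPM, the counts of a gene scaled to a fixed total of mouse counts per library, after TMM scaling, which corrects for composition between libraries.

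The colon wall is a mixture of absorptive, goblet and hormone-producing epithelial cells, smooth muscle, connective tissue, enteric neurons and immune cells, with fat attached to its outer face. Most of these cells keep a circadian clock. In that clock the activators Bmal1 (Arntl) and Clock bind E-box elements and switch on the Per and Cry repressors, the nuclear receptors Nr1d1 and Nr1d2 and the output factors Dbp, Tef and Hlf. Nr1d1 and Nr1d2 in turn repress Arntl, so that Arntl and Dbp peak at opposite times of day in mouse tissues. In bulk tissue, fewer cells of a type and less RNA per cell cannot be told apart.

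Depth was similar on both days, at 2223447 to 6756616 counts per library at day 48 and 3252453 to 4363859 at day 3. All 11 genes of the tissue check were detected, Epcam at 2720 to 3580 CPM at day 48 and 3260 to 3650 CPM at day 3. Ribosomal RNA genes took 6.17% to 12.6% of counts at day 48 and 12% to 14.3% at day 3 (exact two-sided permutation p = 0.171). The count-weighted GC content was 48.6% to 49.1% at day 48 and 48.8% to 49.0% at day 3. The count-weighted transcript length was 3123 to 3162 bases at day 48 and 3031 to 3075 bases at day 3, without overlap (exact p = 0.0571, the smallest that the 35 splits allow). Across all genes the fold change had a Spearman coefficient of -0.0369 with GC content and 0.12 with length; genes are not independent replicates, and the part of length in the results was not tested. Of small counts, 63.2% to 67.9% were even at day 48 and 68.3% to 73.6% at day 3, again without overlap (exact p = 0.0571, or 0.209 adjusted over 11 library measures).

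The day 48 libraries of litters 2 and 4 stood apart from the other 5. Their summed level of small intestine and Paneth cell genes was 1940 CPM in litter 2 and 6490 CPM in litter 4, against 400 to 406 CPM in the other day 48 libraries and 578 to 609 CPM at day 3. Apoa1, an apolipoprotein of the small intestine, had 8.92, 383, 12.2 and 2240 CPM in litters 1 to 4 at day 48, against 1.96, 2.69 and 0.477 CPM at day 3. The brush-border peptidase Anpep had 467 and 1470 CPM in litters 2 and 4 at day 48 and 5.35 and 21.9 CPM in litters 1 and 3. Defa24, a Paneth cell defensin with near-identical relatives, reached 688 CPM in litter 4 at day 48 and at most 10.8 CPM in the other 6 libraries. The library of litter 4 also held 407 CPM of Cd74, the chaperone of MHC class II, against 30.3 to 55.1 CPM in the other 3 day 48 libraries and 42.0 to 50.3 CPM at day 3. An alternative without these 2 libraries was therefore added after seeing the data, which leaves 2 day 48 libraries.

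Of 11696 genes tested, 97 (0.829%) passed an adjusted p of 0.05, 51 higher (0.436%) and 46 lower (0.393%) at day 48 than at day 3 (edgeR's quasi-likelihood test over all 20 total tissue libraries, Benjamini-Hochberg adjustment). Over all genes the log2 fold change had a median of 0.0143. For 94 of the 97 the day 48 and day 3 libraries did not overlap, beside 14.0% of all genes tested (6.54% with day 48 higher and 7.51% with day 48 lower). The largest named groups among the 97 were 11 circadian clock genes and 10 adipocyte genes. Without the day 48 libraries of litters 2 and 4, 21 genes were higher and 18 lower, and 37 of the 97 calls held. With litter as a block, 31 were higher and 37 lower. Leaving out any 1 of the 7 libraries gave 22 to 53 higher and 23 to 48 lower genes, and 32 of the 97 calls held in each of these fits; the lowest higher count and the lowest lower count, 22 and 23, came without day 3 litter 3. By library left out, the higher and lower counts were 31 and 30 without day 48 litter 2, 28 and 29 without day 48 litter 4, 28 and 26 without day 3 litter 1, and 33 and 32 without day 3 litter 2.

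**Figure D1:**
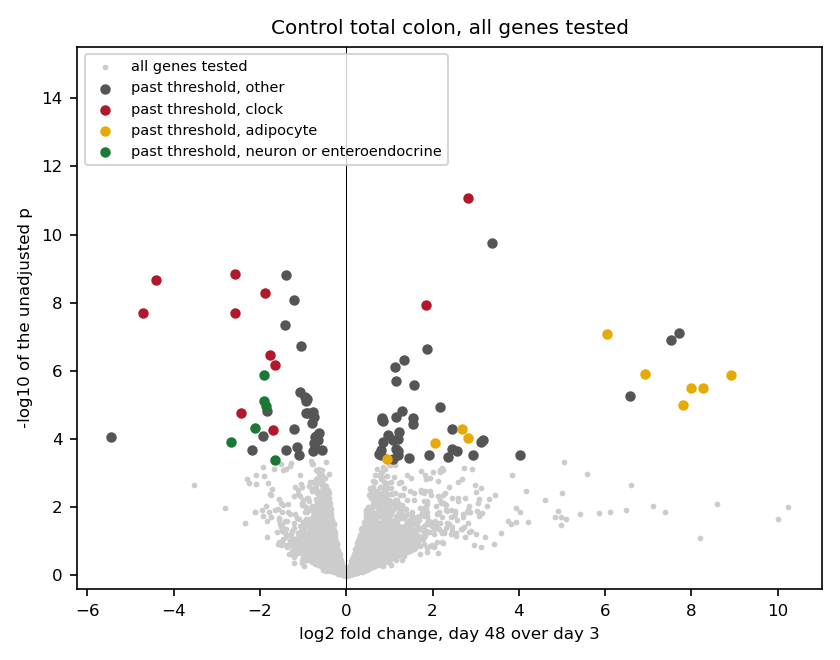
Each point is 1 of 11696 genes, with the log2 fold change of day 48 over day 3 on the x axis and -log10 of the unadjusted p on the y axis. Points past the adjusted threshold are dark or coloured by gene list; clock genes lie on both sides and adipocyte genes on the right.

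Clock genes were the largest list among the calls. All 18 listed members were tested, and 2 rose and 9 fell at day 48, beside 0.436% of all genes that rose and 0.393% that fell. The list had a median log2 fold change of -1.67 beside 0.0143 for all genes. The summed level of the list was 383 to 485 CPM at day 48 and 742 to 823 CPM at day 3. The 250 bases before each RefSeq start (GRCm38.p6) were searched for the motifs through which clock factors act, and the stretches with a match are shown for the members that passed, trimmed of annotated exon. Capitals mark the E-box CACGTG, which reads the same on both strands, or the D-box TTATGTAA, the site of Dbp and Tef, of which TTACGTAA and TTATATAA were also searched on both strands.
Ciart (chr3:95882252-95882374, minus strand): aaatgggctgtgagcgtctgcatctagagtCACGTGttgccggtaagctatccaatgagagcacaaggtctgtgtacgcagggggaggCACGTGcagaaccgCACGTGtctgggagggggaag
Tef (chr15:81811246-81811311, plus strand): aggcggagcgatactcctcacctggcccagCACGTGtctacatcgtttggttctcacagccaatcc
Per1 (chr11:69098753-69098818, plus strand): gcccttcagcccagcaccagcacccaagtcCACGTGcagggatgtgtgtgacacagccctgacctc
Bhlhe41 (chr6:145865559-145865603, minus strand): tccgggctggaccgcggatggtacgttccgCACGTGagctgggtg
Cry1 (chr10:85185079-85185144, minus strand): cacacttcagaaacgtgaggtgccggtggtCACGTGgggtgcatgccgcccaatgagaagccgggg
Per3 (chr4:151044786-151044900, minus strand): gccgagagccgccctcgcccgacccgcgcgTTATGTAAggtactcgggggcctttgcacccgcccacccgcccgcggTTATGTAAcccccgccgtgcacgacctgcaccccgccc
An E-box was present for 5 of the 16 clock genes with a promoter in the table, Per1, Cry1, Tef, Ciart and Bhlhe41, and for 6.86% of all 27025 genes with a promoter. A D-box was present for 1 of the 16, Per3, and for 1.69% of all genes. The core TAGGTCA of the site that Nr1d1 and Nr1d2 bind, searched on both strands, was present for 1 of the 16, Nfil3, and for 2.55% of all genes. Most members, Arntl, Dbp, Nr1d1, Nr1d2 and Usp2 among them, held none of the 3 motifs in this window. These are letter matches in a short window and no measure of binding.

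Among the activators, Arntl had 44.2, 59.4, 58.2 and 49.6 CPM in the 4 day 48 libraries, against 3.92, 15.1 and 3.34 CPM in the 3 day 3 libraries. Every day 48 library lay far above every day 3 library, and Arntl was 7.06-fold higher (log2 2.82 ± 0.32 SE, adjusted p = 9.77e-08). Its partner Clock had 50.7 to 57.7 CPM at day 48 and 26.8 to 41.1 CPM at day 3, without overlap, and did not pass (adjusted p = 0.275). Npas2, which can take the place of Clock, had 22.0 to 26.3 CPM at day 48 and 11.7 to 15.9 CPM at day 3 and did not pass either (adjusted p = 0.597).

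Among the repressors, Cry1 rose like Arntl, and Per1 and Per3 fell. Cry1 had 37.5, 47.4, 48.7 and 52.6 CPM at day 48, against 14.4, 14.0 and 11 CPM at day 3, and was 3.57-fold higher (log2 1.84 ± 0.28, adjusted p = 1.69e-05). Its promoter is one of those with an E-box shown above. Per3, which carries 2 D-boxes, had 9.37, 2.05, 4.4 and 10.9 CPM at day 48 and 44.1, 47.6 and 25.3 CPM at day 3, a 5.98-fold difference downwards (adjusted p = 2.33e-05). Per1 fell 3.26-fold, with 4.46 to 14.9 CPM at day 48 and 25.0 to 31.2 CPM at day 3 (adjusted p = 0.0117), a call that was lost without day 48 litter 1, 2 or 4 or without day 3 litter 1 or 3. Per2 had 0.446 to 5.97 CPM at day 48 and 9.06 to 18 CPM at day 3, and Cry2 had 23.2 to 36.2 CPM at day 48 and 34.9 to 46.3 CPM at day 3; neither passed (adjusted p = 0.188 for Per2 and 0.655 for Cry2). Ciart, a repressor of Clock and Arntl activity, had 0.892, 0, 0.852 and 1.63 CPM at day 48, against 17.3, 17.2 and 22.7 CPM at day 3, and was 21.1-fold lower (log2 -4.4 ± 0.61, adjusted p = 4.99e-06). It is the member with 3 E-boxes in its window. Bhlhe41, a repressor that binds E-boxes, had 1.17 to 5.35 CPM at day 48 and 11.4 to 22.8 CPM at day 3 (5.42-fold lower, adjusted p = 0.00478), and did not pass without day 3 litter 1. Bhlhe40, its relative, was just outside the threshold at 65.4 to 84.5 CPM at day 48 and 120 to 142 CPM at day 3 (adjusted p = 0.0541). Cipc, which is not on the list and binds Clock to restrain it, was chosen here after its values were seen: it had 103, 98.4, 82.8 and 69.7 CPM at day 48 and 168, 167 and 225 CPM at day 3 (adjusted p = 0.00179).

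Both nuclear receptors and 2 of the 3 output factors fell at day 48. Nr1d2 had 17.8, 18.7, 22.4 and 19.5 CPM at day 48, against 91.4, 65.0 and 63.4 CPM at day 3, and was 3.69-fold lower (log2 -1.88 ± 0.27, adjusted p = 1.02e-05). Nr1d1 had 47.7, 43.6, 72.9 and 45.6 CPM at day 48 and 158, 183 and 196 CPM at day 3 (3.38-fold lower, adjusted p = 0.000229). Nr1d1 overlaps Thra on the other strand, and whether counting used strand is not given in the sources used here, so its reads may include those of Thra. Tef had 11.6, 3.51, 9.80 and 10.3 CPM at day 48, against 52.9, 57.8 and 47.0 CPM at day 3, a 5.96-fold fall (log2 -2.58 ± 0.35, adjusted p = 4.4e-06). Dbp had 0.446, 0.585, 0.568 and 0 CPM at day 48 and 11.1, 11.3 and 14.3 CPM at day 3, and was 26.1-fold lower (log2 -4.71 ± 0.72, adjusted p = 2.33e-05). Both factors were thus nearly absent or low in all 4 day 48 libraries and present in all 3 day 3 libraries. Hlf, the third factor of this family, had 1.76 to 4.26 CPM at day 48 and 6.53 to 10.5 CPM at day 3 (adjusted p = 0.321), and Nfil3, which competes for D-boxes, had 1.17 to 7.10 CPM at day 48 and 0.269 to 1.91 CPM at day 3 (adjusted p = 0.261). Usp2, a deubiquitinase under clock control, had 16.1, 33.4, 32.2 and 35.3 CPM at day 48 and 82.6, 109 and 85.4 CPM at day 3 (3.11-fold lower, adjusted p = 0.000409).

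**Figure D2:**
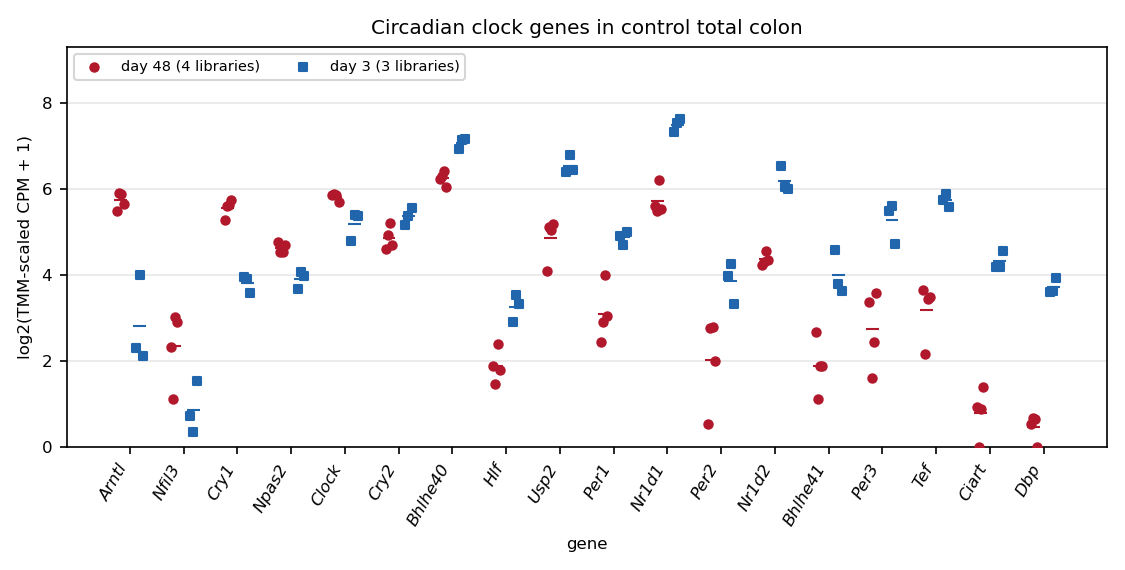
TMM-scaled CPM of the 18 listed clock genes on a log2(CPM + 1) axis, 1 point per library and a line at the mean of the plotted values, ordered by fold change. Arntl at 44.2 to 59.4 CPM on day 48 and Dbp at 0 to 0.585 CPM on day 48 mark the 2 ends.

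Without the 2 libraries that stood apart, 2 clock genes were higher and 7 lower, and Arntl had a log2 fold change of 2.77 (adjusted p = 3.06e-07) and Ciart one of -4.38 (adjusted p = 0.00108). With litter as a block the counts were again 2 and 9. At day 14, control total tissue held 54.5 to 72.4 CPM of Arntl, 0 to 0.548 CPM of Dbp and 352 to 478 CPM of the clock list in sum, in 3 libraries of 220717 to 1705280 counts. By these values day 14 stood nearer to day 48 than to day 3, a description with no test.

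The same contrast in total colon of T.mu mice uses other libraries, whose day 48 index differed from that of the controls. Across all genes its fold change had a Spearman coefficient of -0.346 with GC content, against -0.0369 in controls. With the litter block 130 genes were called, and 52 with the block and a GC and length offset. The part of GC content in the comparison with T.mu mice was not tested. There 3 clock genes were higher and 7 lower among 190 calls (1.62% of genes tested, 0.53% higher and 1.09% lower), with a list median of -1.63. Arntl had 45.7 to 81.4 CPM in T.mu mice at day 48 and 6.26 to 11.4 CPM in T.mu mice at day 3 (log2 2.80 ± 0.35, adjusted p = 6.76e-07). Ciart had 0 CPM in all 4 T.mu libraries of day 48 and 7.15 to 13.5 CPM in those of day 3. No clock gene passed the test of a difference between the day effects of control and T.mu mice, with an adjusted p of 0.997 for Arntl and 0.961 for Tef.

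In libraries labelled colonic epithelial cells, from control mice, whose day 48 and day 3 libraries carried the same pair of indices, no gene passed of 10119 tested (0.0%; 947 at an unadjusted p below 0.05, 19 with DESeq2). The epithelial fold change had a Spearman coefficient of -0.315 with GC content across all genes, and its part was not tested. Arntl had 22.8 to 29.4 CPM at day 48 and 18.8 to 28.1 CPM at day 3 in epithelium, with overlapping libraries. These libraries held 909 to 986 CPM of Epcam at day 48 and 776 to 945 CPM at day 3, below total tissue, and at most 9.01 CPM of the stromal collagen gene Col3a1. Of 11834 genes, 8 (0.0676%) passed the test of a difference in day effect between total tissue and epithelium, 2 (0.0169%) with a higher and 6 (0.0507%) with a lower value in total tissue. Libraries of the 2 preparations carry the same litter and day labels, and this fit did not pair them. The day effect on Arntl differed between total tissue and epithelium (log2 difference 2.63 ± 0.55, adjusted p = 0.0182), and so did that on Tef (adjusted p = 0.000641). Epithelial Tef was at 6.20 to 14.7 CPM at day 48 and at 0 in all 3 day 3 libraries, so its fitted difference gives no size. The epithelial day 3 libraries held 170291 to 670891 counts, and for Cry1 (adjusted p = 0.106), Per3 (adjusted p = 0.129) and Nr1d1 (adjusted p = 0.105) the difference between the 2 preparations did not pass.

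Adipocyte genes were the second large group. Of 22 listed genes, 20 were tested, and 10 rose and none fell at day 48 (51 of all 11696 genes, 0.436%, rose), with a list median of 1.40. The summed level of the list was 1630, 5240, 1860 and 3720 CPM in litters 1 to 4 at day 48, against 861, 869 and 803 CPM in litters 1 to 3 at day 3. The 2 highest sums were those of litters 2 and 4, which also held high levels of small intestine genes. Litters 1 and 3, with lower sums of those genes, still lay above every day 3 library in the adipocyte sum.

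The secreted products were low or at 0 at day 3. Adipoq, which encodes the fat hormone adiponectin, had 53.5, 246, 42.3 and 122 CPM at day 48, against 0.653, 0 and 0 CPM at day 3. Only 2 counts of Adipoq were seen at day 3, and the ratio of the pooled counts, scaled by library size, was 572 with an exact counting interval of 158 to 4730 (adjusted p = 0.000678). Retn, the adipokine resistin, had 27.7, 143, 41.0 and 80.8 CPM at day 48 and 0.653, 0 and 0 CPM at day 3 (ratio 381, counting interval 105 to 3150, adjusted p = 0.00136). Cfd, the complement protease adipsin, had 258, 1300, 320 and 762 CPM at day 48 and 6.20, 2.15 and 0 CPM at day 3 (254-fold higher, adjusted p = 0.00136). No day 3 library of these 3 genes came near a day 48 library. Lep, which encodes leptin, had 0.892 to 4.68 CPM at day 48 and 0 to 0.653 CPM at day 3 and was too low to be tested, as was Plin1, a lipid droplet protein.

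Fatty acid handling genes followed. Fabp4, the fatty acid binding protein of adipocytes, had 94.2, 389, 115 and 278 CPM at day 48, against 2.61, 4.30 and 2.86 CPM at day 3, and was 65.8-fold higher (log2 6.04 ± 0.62, adjusted p = 7.29e-05). Car3, a carbonic anhydrase abundant in fat and muscle, had 243, 1130, 208 and 545 CPM at day 48 and 8.81, 2.96 and 1.91 CPM at day 3 (121-fold higher, adjusted p = 0.000678). Thrsp, a regulator of fat synthesis, had 20.5 to 76.5 CPM at day 48 and 0 to 0.653 CPM at day 3. Its 2 day 3 counts gave a ratio of 287 (counting interval 79.2 to 2370, adjusted p = 0.00337). The more widely expressed genes moved less. The lipase Lpl was 4.14-fold higher (59.5 to 206 CPM at day 48 and 20.2 to 31.7 CPM at day 3, adjusted p = 0.0203). Cd36, a fatty acid receptor, was 6.39-fold higher (adjusted p = 0.0113, and 0.0602 with the litter block). Scd1, the stearoyl desaturase, was 7.11-fold higher with 149, 674, 270 and 749 CPM at day 48 and 52.5 to 71.5 CPM at day 3 (adjusted p = 0.0176, and 0.0567 with the block). The lipid droplet gene Cidec had 45.1 to 138 CPM at day 48 and 45.4 to 49.9 CPM at day 3, with an overlap (adjusted p = 0.0464, and 0.250 with the block).

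The 10 tested members that did not pass included the regulators Pparg, at 131 to 158 CPM at day 48 and 164 to 194 CPM at day 3 (adjusted p = 0.657), and Cebpa, at 4.46 to 14.1 CPM at day 48 and 2.69 to 7.83 CPM at day 3 (adjusted p = 0.894). Pparg is also expressed in colonocytes. Outside the list, Adig, a gene of adipocyte differentiation, had 157 counts over the day 48 libraries and 0 at day 3, at least 35.1-fold higher over a floor of 3 counts for the day 3 group (adjusted p = 0.000103, and 0.115 without litters 2 and 4). Hp, the acute phase protein haptoglobin, which fat also makes, had 8.03, 23.4, 4.97 and 9.22 CPM at day 48 and 0 in all day 3 libraries, at least 37.3-fold higher (adjusted p = 7.29e-05). Cyp2e1, an ethanol-oxidizing cytochrome, had 14.7, 132, 17.8 and 61.3 CPM at day 48 and 0 to 0.954 CPM at day 3 (adjusted p = 0.00221). Adig and Cyp2e1 were highest in litters 2 and 4 and Hp in litter 2.

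**Figure D3:**
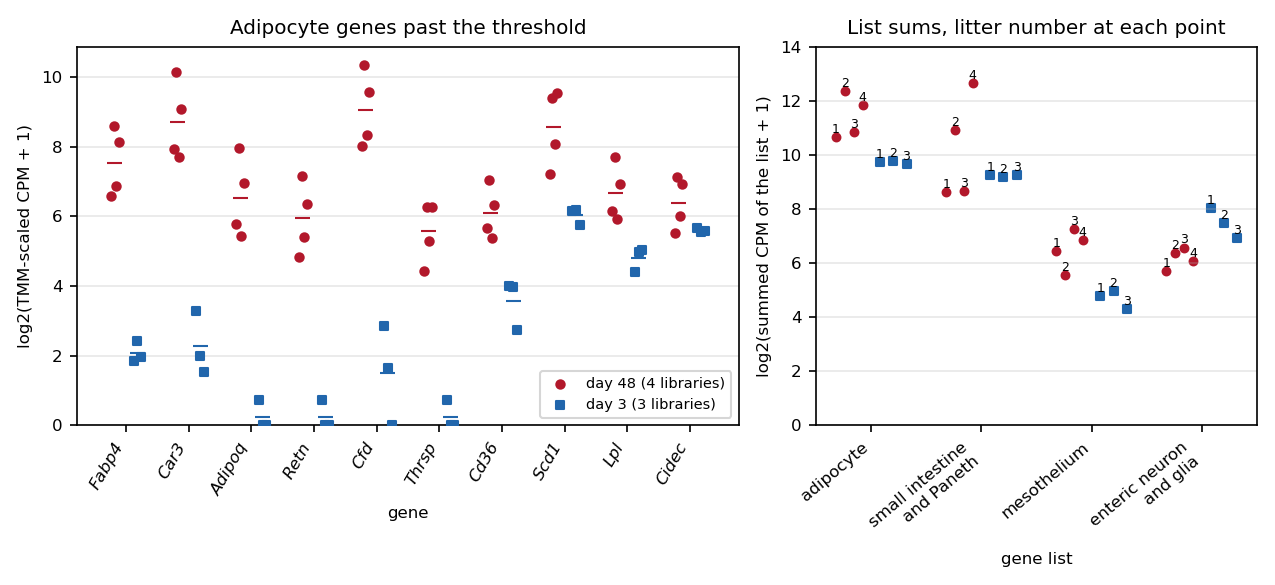
Left, the 10 adipocyte genes past the threshold on a log2(CPM + 1) axis, 1 point per library with a line at the mean. Right, summed CPM of 4 gene lists on a log2(CPM + 1) axis with the litter number at each point: adipocyte sums of 1630 to 5240 CPM at day 48 lie above 803 to 869 CPM at day 3, while small intestine genes stand out in litters 2 and 4 of day 48.

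Leaving out any single day 3 library left 6 adipocyte calls, without Cd36, Scd1, Lpl and Cidec. Without litters 2 and 4, 8 adipocyte genes still passed, among them Fabp4 at a log2 fold change of 4.97, Adipoq at 7.62 and Retn at 7.15. Fitted on the 7 libraries of the contrast alone, 2 of the list passed, and with the litter block 7. In T.mu mice none of the list was higher at day 48 and 1 was lower, with a list median of -0.06 and sums of 846 to 1110 CPM at day 48 and 885 to 1070 CPM at day 3. Fabp4 had 12.8 to 51.0 CPM in T.mu mice at day 48 and 9.36 to 19.7 CPM in T.mu mice at day 3. Its day effect differed between control and T.mu mice (log2 difference 5.03 ± 0.86, adjusted p = 0.0438), as did those of Car3 (6.99 ± 1.10, adjusted p = 0.0268) and Hp (adjusted p = 0.0444). Rbp4, the retinol carrier, also differed (adjusted p = 0.00479), with 9.94 to 16.8 CPM at day 48 and 4.29 to 6.99 CPM at day 3 in controls, and 0 at day 48 and 9.36 to 12.5 CPM at day 3 in T.mu mice. At day 14 controls had a list sum of 688 to 1220 CPM and 8.39 to 24.1 CPM of Fabp4. The small intestine genes were high in the same 2 control day 48 libraries as the adipocyte sums. In T.mu mice at day 48 the small intestine genes summed to 656, 7660, 590 and 4180 CPM in litters 1 to 4. The adipocyte sums of those 4 libraries were 924, 1000, 846 and 1110 CPM. The part of the small intestine genes in the result was not tested.

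Mesothelium, the outer lining of the gut, lies beside this fat. Its list summed to 85.7, 45.7, 154 and 116 CPM at day 48 and 26.4, 30.6 and 18.6 CPM at day 3, without overlap, and all 6 tested members had a positive fold change with none past the threshold. Upk3b, a mesothelial membrane protein, had 19.6, 16.1, 40.8 and 33.4 CPM at day 48 and 3.92, 6.99 and 2.86 CPM at day 3 (adjusted p = 0.126). The smooth muscle list, with 24 tested members, had none past the threshold and a median of 0.20, and Myh11, the smooth muscle myosin, was at 436 to 549 CPM at day 48 and 317 to 600 CPM at day 3.

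Enteric neuron genes were lower. Of 24 listed genes 19 were tested, 4 fell and none rose (0.393% of all genes fell), and the list median was -1.20, with 18 of 19 fold changes below 0. The list summed to 50.9, 82.8, 94.5 and 66.2 CPM at day 48 and 264, 177 and 120 CPM at day 3, without overlap. Uchl1, a ubiquitin hydrolase of neurons, had 5.35, 8.20, 10.8 and 4.88 CPM at day 48, against 38.8, 29.0 and 17.9 CPM at day 3 (3.76-fold lower, adjusted p = 0.00274). The neuropeptide gene Gal had 1.34, 3.51, 4.83 and 5.70 CPM at day 48 and 23.8, 14.2 and 15.3 CPM at day 3 (4.35-fold lower, adjusted p = 0.0110, and 0.0625 with the litter block). Calb2, the calcium buffer calretinin, had 0.543 to 2.56 CPM at day 48 and 3.82 to 13.7 CPM at day 3 (adjusted p = 0.0203, and 0.0712 with the block). Snap25, part of the synaptic vesicle fusion complex, had 3.57 to 10.5 CPM at day 48 and 11.7 to 27.4 CPM at day 3 (adjusted p = 0.0490, and 0.178 with the block). The axonal genes Stmn2 (3.12 to 14.2 CPM at day 48 and 15.3 to 29.7 CPM at day 3) and Tubb3 (0.892 to 4.10 CPM at day 48 and 3.82 to 20.2 CPM at day 3) did not pass, at adjusted p = 0.0769 and 0.0944. Nos1, the nitric oxide synthase of inhibitory motor neurons, had 1.09 to 4.10 CPM at day 48 and 4.77 to 10.4 CPM at day 3 (adjusted p = 0.427). The glial genes S100b and Gfap had adjusted p values of 0.991 and 0.969. No neuron gene passed without day 3 litter 1, the library with the highest sum, and 2 passed without day 48 litter 1, 2 or 4 or day 3 litter 2. None passed without both day 48 litters 2 and 4, where Uchl1 had an adjusted p of 0.14. In T.mu mice 2 of the 19 were lower and the list median was -1.06.

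A pair of peptide genes shared by neurons and endocrine cells fell as well. Tac1, which encodes substance P, had 11.6, 9.95, 6.39 and 7.60 CPM at day 48, against 37.9, 36.6 and 23.4 CPM at day 3 (3.74-fold lower, log2 -1.90 ± 0.35, adjusted p = 0.000678). Sst, somatostatin, had 4.46, 14.6, 9.09 and 3.53 CPM at day 48 and 40.8, 27.4 and 20.5 CPM at day 3 (3.63-fold lower, adjusted p = 0.00355). They were the 2 of 16 tested enteroendocrine genes that passed, beside 0.393% of all genes that fell. For both, every day 48 library lay below every day 3 library, and Sst did not pass without day 3 litter 1. Of the 16, 14 had negative fold changes, with a list median of -0.41. The list summed to 316 to 586 CPM at day 48 and 579 to 686 CPM at day 3, with an overlap. The hormone genes of epithelial endocrine cells Chga (55.6 to 133 CPM at day 48 and 83.2 to 140 CPM at day 3), Pyy (adjusted p = 0.847) and Gcg (adjusted p = 0.969) did not pass.

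Of 17 tested plasma cell genes, Igha and Igkc fell and none rose, beside 0.393% of all genes that fell and 0.436% that rose. The list had 8 positive and 9 negative fold changes and a median of -0.27. Igha, the constant region of IgA, had 66.0, 74.4, 126 and 116 CPM at day 48, against 282, 266 and 226 CPM at day 3, and was 2.68-fold lower (log2 -1.42 ± 0.21, adjusted p = 4.66e-05), a call that held whichever library was left out. Igkc, the kappa constant region, had 41.5, 70.3, 144 and 88.2 CPM at day 48 and 236, 268 and 182 CPM at day 3 (2.62-fold lower, adjusted p = 0.0299, 0.221 with the block and 0.461 without litters 2 and 4), and it passed only without day 48 litter 1 or 3 when single libraries were left out. The variable segment Igkv16-104, which has close relatives, had 0.892, 0, 0 and 0 CPM at day 48 and 1.31, 9.41 and 13.8 CPM at day 3, from 2 counts at day 48 and 97 at day 3 (adjusted p = 0.0163, and 0.113 with the block; 2 of 7 fits with 1 library left out). Jchain, which joins IgA into dimers, had 87.5 to 198 CPM at day 48 and 155 to 228 CPM at day 3 (adjusted p = 0.418). All annotated antibody genes together, whose near-identical copies can share reads, took 0.018% to 0.0386% of counts at day 48 and 0.0535% to 0.0663% at day 3 (exact p = 0.0571, the smallest possible). In T.mu mice Igha had a log2 fold change of -0.43 (adjusted p = 0.402). Of the 17 plasma cell genes, 1 rose and none fell there, beside 0.53% and 1.09% of all genes. All annotated antibody genes summed to 221 to 542 CPM at day 48 and 561 to 663 CPM at day 3 in T.mu mice, without overlap. None of the 17 passed the test of a difference between the day effects of control and T.mu mice.

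**Figure D4:**
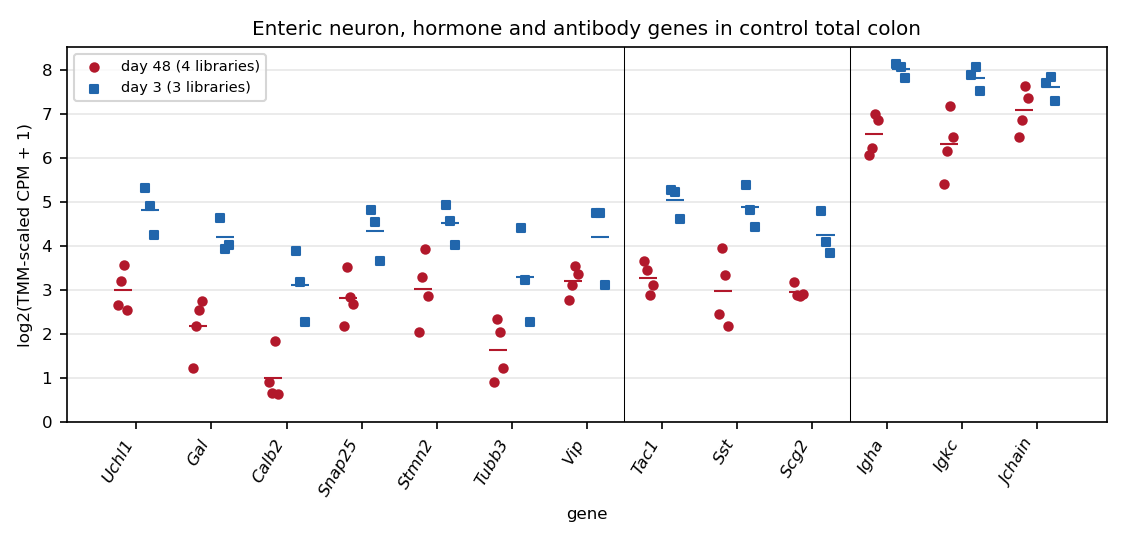
TMM-scaled CPM on a log2(CPM + 1) axis for 7 enteric neuron genes, 3 hormone or secretory genes and 3 plasma cell genes, 1 point per library with a line at the mean. Day 48 lies below day 3 without overlap for Uchl1, Tac1, Sst and Igha, and Jchain overlaps.

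Several calls with small adjusted p values, such as Cdo1, Spon2, Igfbp5, Arrdc4 and Trib1, belong to none of the lists. Cdo1, a cysteine dioxygenase of taurine synthesis that fat and liver express, had 23.2, 61.8, 29.0 and 52.6 CPM at day 48, against 1.31, 5.91 and 4.29 CPM at day 3 (10.5-fold higher, log2 3.39 ± 0.44, adjusted p = 1.04e-06). Its day 48 values were highest in litters 2 and 4, and without these 2 its log2 fold change was 2.72 (adjusted p = 0.00222). C3, the central complement component, had 162, 214, 324 and 198 CPM at day 48 and 54.8, 58.6 and 36.3 CPM at day 3 (4.52-fold higher, adjusted p = 0.00363). Igf1, a growth factor made by stromal cells, had 40.2, 65.0, 54.5 and 54.0 CPM at day 48 and 23.2, 29.3 and 12.9 CPM at day 3 (2.47-fold higher, adjusted p = 0.00473). Igfbp5, which binds it, was 2.97-fold higher (34.8 to 53.4 CPM at day 48 and 10.8 to 18.9 CPM at day 3, adjusted p = 0.00124). Spon2, a matrix protein, had 24.1 to 46.0 CPM at day 48 and 8.11 to 11.3 CPM at day 3 (3.68-fold higher, adjusted p = 0.000166). Arrdc4, an arrestin-domain protein, was 2.52-fold higher (adjusted p = 0.000321) and Trib1, a pseudokinase, 2.18-fold (adjusted p = 0.000447). Eln, elastin, at 4.91 to 10.8 CPM at day 48 and 0.269 to 1.31 CPM at day 3, was the single call among 39 tested matrix genes (adjusted p = 0.0186, and 0.109 with the block). Of these 39 genes, 32 had positive fold changes, with a list median of 0.30, and 0.436% of all genes rose. The list summed to 2810 to 3810 CPM at day 48 and 1800 to 3470 CPM at day 3, with an overlap. Col1a1 and Col3a1, the main fibrillar collagens, had adjusted p values of 0.994 and 0.936, with 54.0 to 90.3 CPM of Col1a1 at day 48 and 56.1 to 98.2 CPM at day 3.

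Most of the epithelial and mucosal genes described here fell, and Slc16a1 rose. Tns4, a focal adhesion protein, had 258, 230, 364 and 333 CPM at day 48, against 650, 681 and 729 CPM at day 3 (2.31-fold lower, log2 -1.21 ± 0.18, adjusted p = 1.37e-05). Adamdec1, a metalloprotease of intestinal stroma and macrophages, had 71.0, 70.8, 117 and 53.4 CPM at day 48 and 201, 212 and 206 CPM at day 3 (2.63-fold lower, adjusted p = 4.4e-06). Both were also lower in T.mu mice, at log2 -1.37 (adjusted p = 2.49e-06) for Tns4 and -2.01 (adjusted p = 1.45e-08) for Adamdec1. Slc6a14, an amino acid transporter, had 1210, 922, 968 and 634 CPM at day 48 and 1750, 1510 and 1930 CPM at day 3 (1.85-fold lower, adjusted p = 0.00478). In T.mu mice it had 1880 to 3000 CPM at day 48 and 1510 to 1840 CPM at day 3, and the 2 day effects differed (log2 difference -1.38 ± 0.26, adjusted p = 0.0112). Slc9a3, the sodium-proton exchanger of absorptive cells, had 17.4 to 28.6 CPM at day 48 and 62.6 to 120 CPM at day 3 (3.85-fold lower, adjusted p = 0.0155). Slc16a1, which carries butyrate and lactate, was 1.78-fold higher (294 to 439 CPM at day 48 and 163 to 290 CPM at day 3, adjusted p = 0.00632). Those 2 were the calls among 32 tested absorptive colonocyte genes, beside 0.829% of all genes called. Of the 32, 22 had negative fold changes, with a list median of -0.19. The list summed to 62700 to 72900 CPM at day 48 and 80200 to 86700 CPM at day 3, without overlap. Of 37 tested genes of xenobiotic metabolism, 3 fell and none rose, beside 0.393% of all genes that fell. The efflux pump Abcb1a had 1060 to 1230 CPM at day 48 and 1840 to 1970 CPM at day 3. The others were the cytochrome Cyp3a13 (1.63-fold lower) and the retinal dehydrogenase Aldh1a1 (1.66-fold lower, with an overlap). Without day 48 litter 2 or 4, or day 3 litter 1 or 3, 1 of the 3 passed. Of the 37, 27 had negative fold changes, with a list median of -0.26. The list summed to 20000 to 23400 CPM at day 48 and 24900 to 26200 CPM at day 3, without overlap. Slc10a2, the bile acid transporter, had 118, 132, 72.0 and 105 CPM at day 48 and 181, 195 and 238 CPM at day 3 (1.92-fold lower, adjusted p = 0.00274). It stands on the small intestine list too, where it was the single call of 13 tested genes.

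Several lists held no call but leaned one way. The endothelial and lymphatic list had 18 of 19 positive fold changes (median 0.56), with a sum of 304 to 422 CPM at day 48 and 188 to 274 CPM at day 3, without overlap, and the smooth muscle list above had 23 of 24 positive. Of 60 tested genes of nuclear-encoded respiration 54 had negative fold changes (median -0.18), and of 75 cytoplasmic ribosomal protein genes 70 did (median -0.19), with 51 and 63 under the RLE size factors. The 28 genes of fatty acid oxidation had a median of -0.26, and Ppara, which controls them, had 9.5 to 16.4 CPM at day 48 and 22.8 to 35.5 CPM at day 3 (adjusted p = 0.171). Of the 28, 23 had negative fold changes, 14 were lower at day 48 without overlap and 1 was higher without overlap. Without overlap, 19 of the 60 respiration genes were lower and 1 was higher, and 16 of the 75 ribosomal protein genes were lower and 0 higher. Of all genes tested, 7.51% were lower and 6.54% higher without overlap. The list medians given here are small, members of a list are not independent replicates, and no test was made of the lists. No gene passed in the goblet, tuft, stem and proliferating, macrophage, T cell, B cell, endothelial or MHC class II lists. All 6 tested MHC class II genes (median 1.31) and all 3 tested B cell genes (median 1.54) had positive fold changes. The MHC class II list summed to 1380 CPM in day 48 litter 4, 108 to 199 CPM in the other day 48 libraries and 151 to 220 CPM at day 3. The B cell list summed to 433 CPM in day 48 litter 4, 48.2 to 77.8 CPM in the others and 56.5 to 70.2 CPM at day 3. Mki67, the proliferation antigen, had 10.8 to 17.8 CPM at day 48 and 11.7 to 22.0 CPM at day 3 (adjusted p = 0.978). Of 34 interferon response genes 17 had positive and 17 negative fold changes, with a list median of 0.01. The single call was Ifi27l2a, which rose, at 118 to 227 CPM at day 48 and 58.4 to 74.1 CPM at day 3 (adjusted p = 0.0310, and 0.0647 with the block). In the secretory and antimicrobial lists, Sdf2l1, an endoplasmic reticulum chaperone, rose 2.92-fold (28.7 to 35.8 CPM at day 48 and 8.60 to 13.8 CPM at day 3, adjusted p = 0.00868) as the single call of 22. Slpi, a secreted protease inhibitor, rose 5.11-fold (4.39 to 16.5 CPM at day 48 and 0.954 to 2.94 CPM at day 3, adjusted p = 0.0422, and 0.149 with the block) as the single call of 21. Beside the single calls of the interferon, secretory and antimicrobial lists, 0.436% of all genes tested rose. Eln, Ifi27l2a and Slpi did not pass without any 1 of the day 3 libraries or without day 48 litter 4, and Slc9a3 did not pass without day 3 litter 3 or day 48 litter 2, 3 or 4. Day 3 litter 1 decided the calls of Sdf2l1, Slc16a1, Gal and Abcb1a, and day 3 litter 3 those of Slc16a1, Igf1, Slc10a2 and Cipc, in that they did not pass without it. Without day 48 litters 2 and 4, the calls of Slc9a3 (adjusted p = 0.372), Slc16a1 (0.167), Slc6a14 (0.167), Abcb1a (0.19), Cyp3a13 (0.429), Aldh1a1 (0.86), Igf1 (0.189), Sdf2l1 (0.0954), Slpi (0.0604), Ifi27l2a (0.217) and Cipc (0.0604) were lost, each with the same direction, and Eln was too low to be tested. The same holds for the calls of Per1 (0.42), Bhlhe41 (0.228), Lpl (0.108), Cidec (1), Igkv16-104 (0.461), Gal (0.0921), Calb2 (0.613) and Snap25 (0.153), which were lost in the same direction.

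Set beside the T.mu mice, 28 of the 97 control calls were also called there, which is 28.9% of the control calls and 14.7% of the 190 T.mu calls, and 27 of the 28 had the same direction. Ifi27l2a was the exception, lower in T.mu mice at day 48 (log2 -1.27, adjusted p = 0.0211). Of all 97 control calls, passing in T.mu mice or not, 80 had a fold change of the same sign there. In control epithelium 68 of the 97 were tested, and 36 of these had the same sign. Over all genes, 10 (0.0855%) passed the test of a difference between the day effects of control and T.mu mice. Of these, 8 (0.0684%) had a higher and 2 (0.0171%) a lower value in controls. The T.mu day 48 libraries held 236155 to 1355659 counts, fewer than any control library of this comparison.

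**Figure D5:**
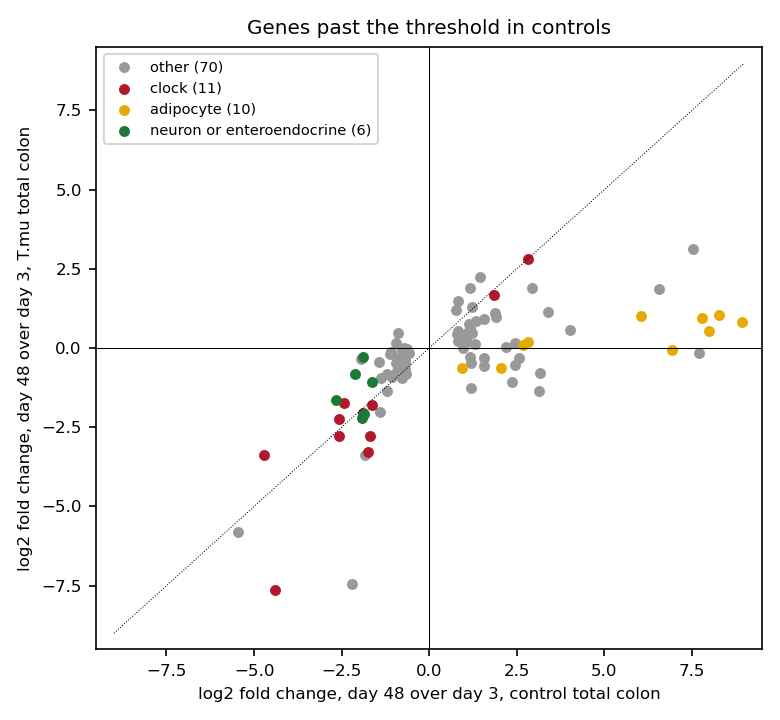
Log2 fold change of day 48 over day 3 for the 97 control calls, in controls on the x axis and in T.mu mice on the y axis; the dotted line marks equal values. The 11 clock genes lie on the same side of 0 in both arms, and the 10 adipocyte genes lie between -0.64 and 1.03 on the y axis.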

How the data were processed

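Total RNA of total colon was measured as 3′ digital gene expression, per the labels' protocols. The authors deposited raw counts, whole numbers for each gene in each library. Per the submitters' processing notes, STAR and Subread were used; versions, genome build, annotation, counting strand and whether molecular identifiers were collapsed are not given in the sources used here. Of 45792 mouse IDs, 45143 (98.6%) have a symbol in GENCODE M21 (GRCm38). The single entry that is not a mouse gene holds 0.389% of the counts and stayed out of library sizes and tests. Small counts were more often even than odd, so low counts are less precise than their size implies, and counting intervals (95%) and floors (3 counts) cover counting error only.

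Counts were tested with edgeR 4.0.16 (R 4.3.3) by its quasi-likelihood test, Benjamini-Hochberg adjusted at 0.05, after TMM scaling; filterByExpr set which genes were tested (a count of at least 10 and a total of at least 15). One fit covered the 20 total tissue libraries and 6 groups, another the 20 epithelial libraries, and one over all 40 tested differences between preparations. For library measures the exact permutation test (two-sided) was used. DESeq2 1.42.0, limma 3.58.1 voom, RLE scaling, no filter, halved counts, thinned counts, a litter block, a GC and length offset, the contrast's libraries alone, removal of ribosomal, mitochondrial and antibody genes, and single libraries left out were alternatives. A litter field in the labels gives the same litter numbers to both days, and the litter block rests on it; deviations of same-litter libraries correlated at 0.0149, -0.0209 and -0.0769. Between libraries of the same day the spread exceeded counting error (chi-square per degree of freedom 4.16 to 19.2). Only the litter labels show that libraries come from different mice, so p-values measure the spread between the libraries of a fit. For genes in the control comparison, that spread was estimated over all 20 total tissue libraries and not over the 7 compared alone.

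Named genes were up to 15 higher and 15 lower calls with the smallest adjusted p and no overlap between groups, up to 4 calls per list or its 2 members with the smallest p, and a short list always named. In the text, list members that missed the threshold are also described to show a list's range. Members, gene lists and tests were chosen with earlier results of these data known. Promoters came from RefSeq (GRCm38.p6); 16 of 18 clock genes matched. One gene that passed the test between preparations is not reported here.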

Additional observations from a re-analysis of the deposited data

Results flagged for a closer look

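In groups of 4 libraries, 1 value lay far from the other 3 for 6 of 108 measures tested, and chance flags about 1 in 20. Among the day 48 controls, Nr1d1 was at 72.9 CPM in litter 3 and 43.6 to 47.7 CPM elsewhere, and Usp2 was at 16.1 CPM in litter 1 and 32.2 to 35.3 CPM elsewhere. Litter 4 held 407 CPM of Cd74, 21.4 CPM of H2-DMb1, a chaperone of MHC class II loading, and 53.7 CPM of Acta1, the skeletal muscle actin, which was at 4.46 to 11.1 CPM in the other 3. The non-mouse entry reached 969 CPM in litter 2, against 5.11 to 27.5 CPM in the other day 48 controls and 19.7 to 29.5 CPM in the day 3 controls.

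For 10 genes the day effect in controls minus that in T.mu mice passed the test of the difference. The log2 differences were 5.03 for Fabp4, 6.99 for Car3, 8.81 for Mfap2, 7.86 for Hp, 8.88 for Rbp4, 1.51 for Chchd10, 2.46 for Ifi27l2a, 1.18 for Gm15564, -1.44 for Slc3a1 and -1.38 for Slc6a14. Mfap2 and Rbp4 had 0 in all T.mu libraries of day 48 and Hp in all control libraries of day 3, so these 3 sizes depend on the fit.

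For 8 genes the day effect in control total tissue minus that in control epithelium passed. For 7 of them the log2 differences were 2.63 for Arntl, -1.49 for Hpgd, -1.25 for Ddx5, -3.43 for Daam1, -1.43 for Akr1c19, -9.64 for Tef and -1.34 for Slc6a14. Tef had 0 in all epithelial libraries of day 3, so its size depends on the fit.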

How the results depend on the processing

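No named gene past the threshold changed sign under any alternative run. Among named genes that had missed it, Cd74 changed to -0.07 (log2) without day 48 litter 4, and without day 48 litters 2 and 4 Cd74 changed to -0.1, Acta1 to -0.32 and Reg3g to -0.68; Cela1, Clps, Col1a1, Col3a1, Hoxd10, Krt10, Mki67 and Mmp9 changed sign under some alternatives too. Beside 51 genes higher at day 48, 78 were higher with no filter, 88 with DESeq2, 153 with limma voom, 31 with the litter block, 30 with the block and the GC and length offset, 132 with halved counts and 106 with the contrast's libraries alone. Beside 46 lower, 184 were lower with voom, 94 with halved counts and 118 with the contrast's libraries alone. Chosen after seeing the data, removal of libraries under 400000 counts gave 77 lower, and removal of the day 48 litters 2 and 4 gave 21 higher and 18 lower. Leaving out 1 library gave 22 to 53 higher and 23 to 48 lower. The cause of these shifts was not tested.

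T.mu mice had 190 calls, 368 with DESeq2, 65 with voom, 52 with the block and offset, 78 with the contrast's libraries alone and 89 to 312 with 1 library left out. The 10 control and T.mu differences became 41 with no filter, 62 with DESeq2, 5 with voom, 3 with the block and offset and 2 to 20 with 1 library left out. The 0 calls in epithelium became 3 with no filter, 19 with DESeq2, 1 with voom and 0 to 1 with 1 library left out. The 8 tissue and epithelium differences became 5 with RLE factors, 16 with no filter, 29 with DESeq2, 13 with voom, 14 with the block and offset, 26 with the contrast's libraries alone, 18 without ribosomal, mitochondrial and antibody genes, and 3 to 19 with 1 library left out.

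Of the 48 named calls, 40 kept their call with the litter block and 8 lost it. With 1 library left out, clock calls were 2 higher and 7 to 9 lower, adipocyte calls 6 to 10 and neuron calls 0 to 4. Genes with a few counts per library, such as Dbp at day 48 and Lep, are limited by depth.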
